A study of Mus musculus with 4 samples.

Results

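Cholesterol and fatty acid synthesis genes were examined in mouse embryonic stem cells (mESCs) with and without Npac. The group holds 34 genes, chosen by name from known biochemistry, with earlier results of these data already known, out of 56748 genes in the deposited count table. Of these, 18 encode enzymes of sterol synthesis, 8 encode enzymes of fatty acid synthesis, and 8 encode regulators of both branches or proteins that move cholesterol. All 34 genes were found, and all 34 passed the filter on low counts that left 18157 genes for the test. RNA-seq was done in the ES cell line E14, kept on gelatin without feeders in serum and leukemia inhibitory factor. There were 4 libraries, WT1 and WT2 from WT cells and KO1 and KO2 from Npac KO cells, which were made with Cas9 and gRNA plasmids under puromycin selection and picked as colonies. Each KO library stands for 1 clone, and nothing states whether the WT libraries came from separate cultures, so p-values measure the spread between these libraries only. The genotypes were compared by edgeR's quasi-likelihood test on the deposited counts, scaled by TMM. Changes are log2 fold changes of Npac KO over WT with their standard error (SE). A gene is called higher or lower where its Benjamini-Hochberg adjusted p was under 0.05 and its fold change was over 1.5. Expression is given as TMM-normalized CPM, the counts of a gene relative to its library's scaled total, and as deposited FPKM, which is per length, where genes are compared with each other.

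Cholesterol and fatty acids are both built from cytosolic acetyl-CoA, which ATP citrate lyase makes from citrate. In the sterol branch, acetyl-CoA units are joined and converted through mevalonate to isoprenoid units, then to squalene, lanosterol and cholesterol. In the fatty acid branch, acetyl-CoA is carboxylated, built into palmitate by fatty acid synthase, and then elongated and desaturated. Both branches are known to be controlled by the SREBP transcription factors, encoded by Srebf1 and Srebf2, which the protein Scap carries out of the endoplasmic reticulum when sterols are low and which the Insig proteins hold back when sterols are high. The liver X receptors, of which Nr1h2 encodes the β form, sense oxysterols and are known to activate the cholesterol exporter gene Abca1 and Srebf1. Proliferating ES cells need both lipid classes for new membranes.

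The promoters of the branches are shown first, because SREBPs are known to bind them together with the factors NF-Y and Sp1. RefSeq promoters (GRCm38.p6) were matched by symbol for 27 of the 34 genes, and the 250 bases before each start were searched on both strands. Fdps, Fdft1, Sqle, Scd1, Scd2, Fads1 and Stard4 were not matched. The sterol response element, searched as TCACNCCAC, was in 1 of the 27 genes, Hmgcs1, against 1.22% of all 27025 genes in the table. Other forms of the element and bases further upstream were not searched, so a gene without a match may still hold one. As a check of the start and strand, a stretch just after each start was looked up in GENCODE transcripts of the same gene. Of 35 promoter entries of the 27 genes, 31 passed. The Hmgcs1 entry did not pass, so its start is uncertain. The upstream 250 bases of Hmgcs1, which encodes the cytosolic synthase that makes HMG-CoA, are on the plus strand at chr13:119690101-119690350, with the element in capitals.

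Hmgcs1: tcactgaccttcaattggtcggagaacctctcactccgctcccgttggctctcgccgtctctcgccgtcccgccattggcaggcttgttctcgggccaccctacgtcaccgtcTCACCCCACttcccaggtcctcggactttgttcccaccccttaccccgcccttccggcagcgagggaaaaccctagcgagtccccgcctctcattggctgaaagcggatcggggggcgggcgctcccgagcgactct

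The CCAAT box, the NF-Y site, was in 14 of the 15 sterol synthesis promoters, in 1 of the 5 fatty acid synthesis promoters and in 4 of the 7 regulator and transport promoters, against 37.5% of all genes. The Sp1 box, searched as GGGCGG, was in 14 of 15, 2 of 5 and 6 of 7 of them, against 35.4% of all genes. The E-box, searched as CACGTG, was in 3 of 15, 0 of 5 and 3 of 7, against 6.86% of all genes. No CCAAT box of these promoters overlapped an Sp1 box. The CCAAT box nearest the start is shown for 5 genes that were called higher in Npac KO cells and for 2 sterol genes whose fitted change was near 0, with the box in capitals (ATTGG where it lies on the other strand). These genes were chosen after their values were seen.

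Hmgcs1: cccgcctctcATTGGctgaaagcgg
Mvd: ggccagcgggCCAATcatatggcag
Idi1: ccaaggtgccATTGGctggcgacc
Insig1: ccctcctcccATTGGctccggcggc
Fasn: tcggtgtccaATTGGtttcgatgtg
Mvk: cagctctctgATTGGcctcaggaa
Nsdhl: gactagcctcATTGGgcaaaatcat

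The box was thus present in sterol genes that were called and in sterol genes that were not, and its presence says nothing about whether NF-Y binds there in these cells.

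Total counts lay between 15850805 and 16965120 per library. Npac, listed as Glyr1, had 259 and 178 CPM in WT and 47.9 and 51.3 CPM in KO libraries, a log2 fold change of -2.14 ± 0.23 (SE, adjusted p = 0.00174). Of 10 ES cell markers, all were expressed, with summed levels of 6344 to 8006 CPM in WT and 5065 to 5314 CPM in Npac KO libraries, and 2 were called lower, Zfp42 and Tfcp2l1. Summed markers of other cell types lay at 31.8 to 32.5 CPM in WT and 20.4 to 27.7 in KO libraries for endoderm (7 genes), 2.10 to 6.70 and 6.88 to 12.1 for mesoderm (5 genes), 79.4 to 91.6 and 84.9 to 98.6 for neural cells (4 genes), 43.0 to 60.4 and 143 to 168 for trophoblast (5 genes), and 35.8 to 59.0 and 45.1 to 50.6 for fibroblasts (5 genes). Of these 26 genes, Hand2, Tfap2c and Col1a1 were called higher, Sox7 and Sox1 were called lower, Dcn had no reads, Foxa2 and Lum had at most 2 reads and Cdx2 at most 16 reads in any library. Tfap2c made up most of the trophoblast sum, with 50.7 and 31.7 CPM in WT and 155 and 134 CPM in KO libraries, and Sox7 went from 17.9 and 9.27 CPM in WT to 0.257 and 0.924 CPM in KO libraries, while Gata6, Gata4 and Pdgfra of the endoderm list had each KO library above each WT library. Their part in the lipid genes' values was not tested. In bulk RNA, fewer cells of a type and less RNA per cell cannot be told apart. Genes on chromosomes 8 and 11 stood higher as a whole in the KO libraries. Set against the mean of the WT libraries, the median shift of their genes on the log2 scale was 0.48 in KO1 and 0.49 in KO2 on chromosome 8, and 0.48 and 0.45 on chromosome 11, while on the other autosomes and the X chromosome it lay between -0.19 and -0.0033. Of the 34 genes, 6 lie on these chromosomes, and their values are also given with the chromosome medians removed.

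The 8 genes taken here as the fatty acid branch rose nearly as a whole in Npac KO cells. The 18 genes taken as the sterol branch were split. Among 43 further lipid pathway genes tested, given below, 3 were called higher and 3 lower. In the fatty acid branch 7 of 8 genes were called higher and 0 were called lower, with a median log2 fold change of 1.35. In the sterol branch 4 of 18 genes were called higher and 0 lower, with a median of 0.21. By unadjusted p under 0.05, 2 sterol genes (Pmvk and Cyp51) and 0 fatty acid genes were lower, and DESeq2 and limma on FPKM also called 0 lower in both branches. Among the 8 regulator and transport genes 2 were called higher and 2 lower, with a range from -3.57 to 1.77. Without KO1 the sterol genes called higher were 2, and without KO1 or without KO2 the regulator and transport genes called higher were 1 and called lower were 1. Without WT1 the sterol genes called lower were 2, Pmvk and Tm7sf2, and without WT2 the regulator and transport genes called higher were 3. Over all 18157 genes tested with every library kept, 11% were called higher and 10.7% were called lower, and the median log2 fold change was 0.0015. The counts over all genes also changed with single libraries left out, as given below. The 34 genes together took 0.200% and 0.194% of all reads in WT and 0.363% and 0.316% in KO libraries. For the fatty acid branch these shares were 0.0871% and 0.0725% in WT and 0.216% and 0.182% in KO libraries, and for the sterol branch 0.0509% and 0.0624% in WT and 0.0776% and 0.0720% in KO libraries. No test of the branches against each other was made, since the genes of a branch are not replicates of a condition.

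**Figure D1:**
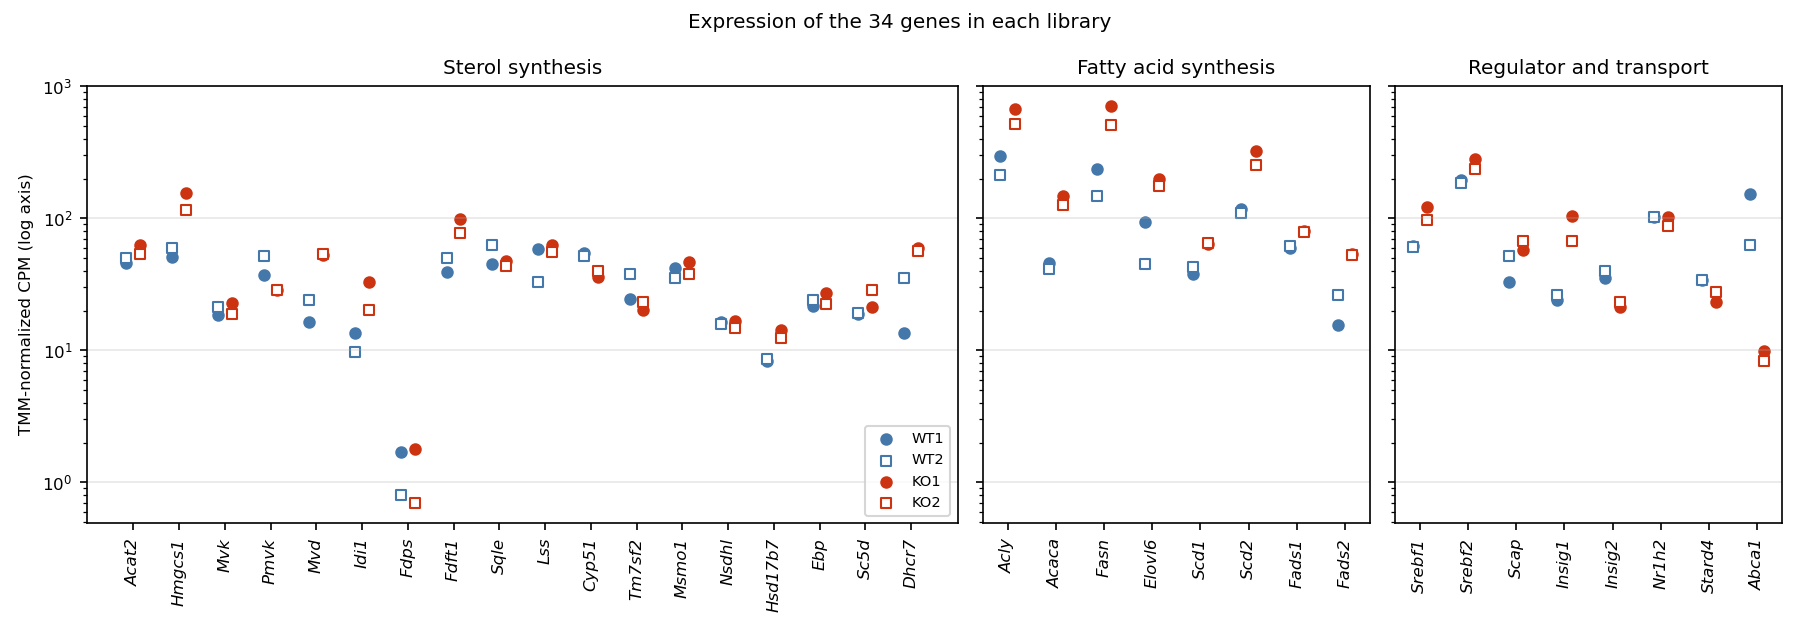
TMM-normalized CPM on a log axis for the 34 genes in each library, in panels for sterol synthesis, fatty acid synthesis, and regulators and transport (blue, WT; red, Npac KO; filled circles, library 1; open squares, library 2). In all 8 fatty acid genes both red points lie above both blue points. In the sterol panel this holds for 8 of 18 genes, against 33.2% of all genes tested. Abca1 shows the widest gap, with KO libraries at 9.91 and 8.26 CPM.

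Fasn, fatty acid synthase (chromosome 11 from 120696672 to 120715373 in the files' coordinates), stood at 238 (WT1), 147 (WT2), 712 (KO1) and 510 CPM (KO2). Both KO libraries lay more than 2-fold above the higher WT library, and the log2 fold change was 1.66 ± 0.28 (SE, adjusted p = 0.00818). Acaca, the acetyl-CoA carboxylase that makes malonyl-CoA for it (chromosome 11 from 84020498 to 84292477), had 46.0 and 41.3 CPM in WT and 149 and 126 CPM in KO libraries. The libraries of each genotype were close for this gene, and it rose 3.15-fold in the group means with a log2 fold change of 1.66 ± 0.19 (SE, adjusted p = 0.00222). Acly, the ATP citrate lyase that supplies both branches (chromosome 11 from 100367179 to 100418826), had 296 and 212 CPM in WT and 679 and 521 CPM in KO libraries. Its log2 fold change was 1.24 ± 0.24 (SE, adjusted p = 0.0119). All 3 of these genes, which carry citrate to palmitate, lie on chromosome 11.

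The enzymes that modify palmitate lie on other chromosomes. Elovl6, the elongase of saturated and monounsaturated C16 chains (chromosome 3 from 129326004 to 129432144), stood at 93.4 (WT1), 45.2 (WT2), 198 (KO1) and 177 CPM (KO2). Each KO library exceeded each WT library, and the latter differed from each other 2.07-fold, and the log2 fold change was 1.44 ± 0.32 (SE, adjusted p = 0.0192), moving to 2.03 without WT1 and 1.00 without WT2. Scd2 and Scd1 encode stearoyl-CoA desaturases, which put the first double bond into saturated chains, and lie near each other on chromosome 19 from 44282113 to 44295303 and from 44382894 to 44396318. Scd2 had 117 and 110 CPM in WT and 325 and 253 CPM in KO libraries, a log2 fold change of 1.35 ± 0.20 (SE, adjusted p = 0.00513). Scd1 had 37.6 and 43.0 CPM in WT and 63.7 and 65.1 CPM in KO libraries, and its log2 fold change of 0.68 ± 0.19 (SE, adjusted p = 0.0383) was the smallest of those called in the branch. The call of Scd1 was lost without WT1, at 0.56, which is under the fold threshold, and without KO1 and without KO2, at 0.68 each.

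Fads2 and Fads1 encode the Δ6 and Δ5 desaturases of polyunsaturated fatty acids, also on chromosome 19. Fads2 stood at 15.6 (WT1), 26.3 (WT2), 54.0 (KO1) and 52.8 CPM (KO2), with a log2 fold change of 1.34 ± 0.27 (SE, adjusted p = 0.0138), which was 1.77 without WT2 and 0.99 without WT1. Fads1 had 60.1 and 61.6 CPM in WT and 80.2 and 79.4 CPM in KO libraries. Its KO libraries were above its WT libraries with almost no spread in either genotype, but the log2 fold change of 0.39 (SE 0.17) did not reach the fold threshold and the adjusted p was 0.143. It was the only gene of the branch that was not called.

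**Figure D2:**
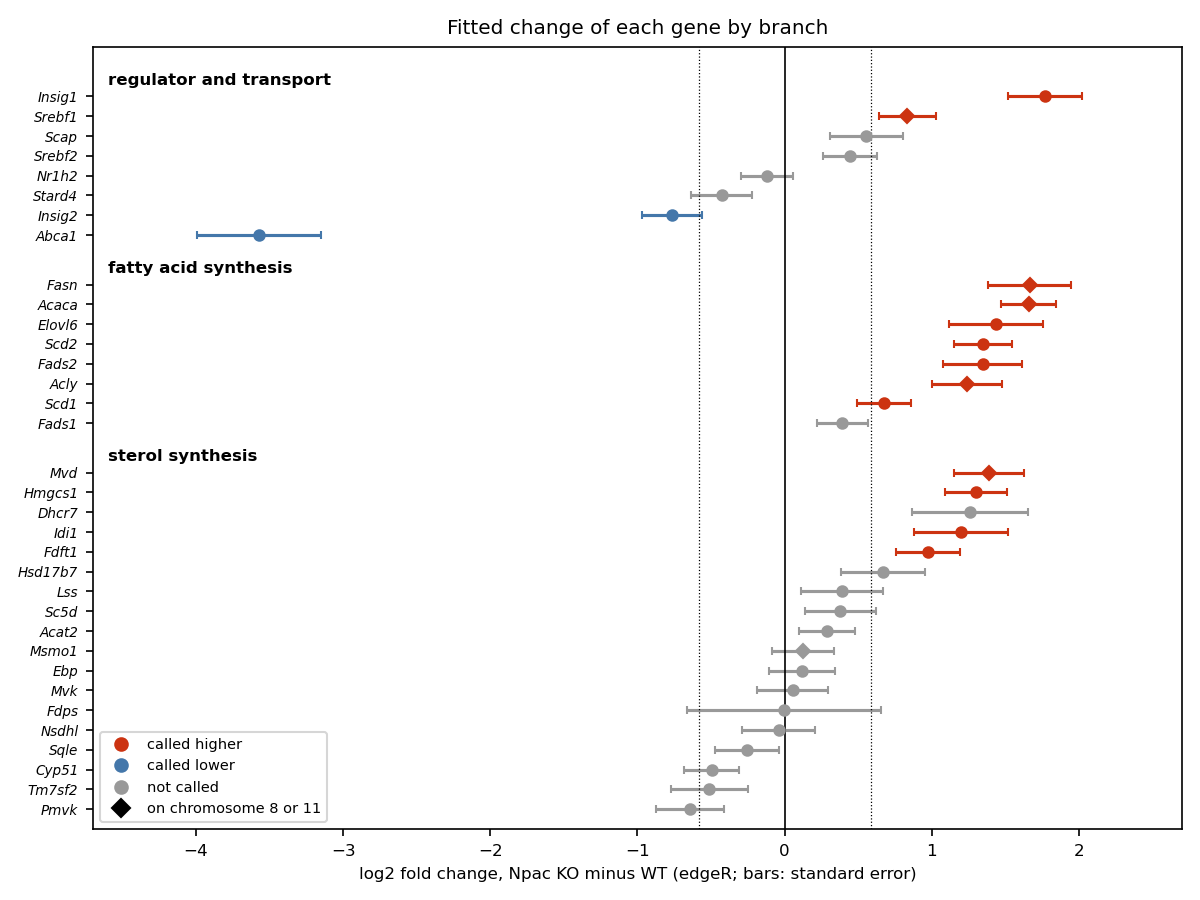
Fitted log2 fold change of each gene, Npac KO minus WT, with its standard error from edgeR, grouped by branch (red, called higher; blue, called lower; grey, not called; diamonds, genes on chromosome 8 or 11; dotted lines, 1.5-fold). The fatty acid genes run from 0.39 to 1.66, the sterol genes from -0.64 to 1.39, and the regulators and transporters from -3.57 to 1.77.

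In the sterol branch the genes called higher were at single steps from HMG-CoA to squalene. Dhcr7, of the last step, had a fitted log2 fold change of 1.26 but was not called, as given below. Hmgcs1 (chromosome 13 from 120151915 to 120169796) had 51.1 and 60.0 CPM in WT and 157 and 117 CPM in KO libraries, a log2 fold change of 1.30 ± 0.21 (SE, adjusted p = 0.00732). Mvd, the decarboxylase that makes isopentenyl diphosphate (chromosome 8 from 123160340 to 123170161), had 16.4 and 24.2 CPM in WT and 52.7 and 53.8 CPM in KO libraries. Its KO libraries were nearly equal and over 2-fold above the higher WT library, with a log2 fold change of 1.39 ± 0.24 (SE, adjusted p = 0.00852). Idi1, the isomerase that follows it (chromosome 13 from 8935537 to 8942487), had 13.6 and 9.73 CPM in WT and 33.1 and 20.3 CPM in KO libraries. Its log2 fold change was 1.20 ± 0.32 (SE, adjusted p = 0.0342), and without KO1 it was 0.80 and not called. Fdft1, squalene synthase (chromosome 14 from 63382599 to 63417027), had 39.5 and 50.1 CPM in WT and 99.0 and 77.4 CPM in KO libraries, a log2 fold change of 0.98 ± 0.22 (SE, adjusted p = 0.0188), and without KO1 it was 0.78 and not called. Fdft1 overlaps Ctsb on the opposite strand in the deposited coordinates, and Ctsb had 2847 and 4172 reads in WT against 1963 and 2433 reads in KO libraries.

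The genes of the steps around them were not called. Mvk, mevalonate kinase, had 18.4 and 21.4 CPM in WT and 22.6 and 18.7 CPM in KO libraries, and its groups overlapped. Pmvk, phosphomevalonate kinase, had 37.0 and 52.3 CPM in WT and 28.7 and 28.5 CPM in KO libraries, so each KO library was under each WT library. Its log2 fold change of -0.64 ± 0.23 (SE, adjusted p = 0.0812) was not called, but it was called at -0.90 without WT1. Neighbouring steps of the mevalonate pathway, those of Mvk, Pmvk and Mvd, thus had fitted log2 fold changes of 0.0546, -0.64 and 1.39. Acat2, the cytosolic thiolase that starts the branch, had 46.1 and 49.7 CPM in WT and 63.0 and 54.1 CPM in KO libraries (log2 fold change 0.29, adjusted p = 0.302).

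None of the 10 genes from squalene to cholesterol was called by edgeR with the filter on low counts, while 3 of them, Cyp51, Hsd17b7 and Dhcr7, had an unadjusted p under 0.05, DESeq2 called 1 and limma on FPKM called 0. Dhcr7, which reduces 7-dehydrocholesterol to cholesterol in the last step, came nearest. It stood at 13.6 (WT1), 35.2 (WT2), 60.0 (KO1) and 57.0 CPM (KO2), and although each KO library exceeded each WT library, the WT libraries differed 2.60-fold. The log2 fold change was 1.26 ± 0.39 (SE, adjusted p = 0.0551). It was called under DESeq2 (adjusted p = 0.0066), by edgeR with no filter on low counts (log2 fold change 1.27, adjusted p = 8.02e-06), and at 2.11 without WT2 and 0.71 without WT1, so the size of the difference rested on WT1. Hsd17b7, a 3-ketosterol reductase, had 8.32 and 8.53 CPM in WT and 14.3 and 12.4 CPM in KO libraries (log2 fold change 0.67, adjusted p = 0.132). Sc5d, the lathosterol desaturase, had 19.0 and 19.3 CPM in WT and 21.4 and 28.4 CPM in KO libraries (log2 fold change 0.38, adjusted p = 0.287). These were the 3 of the 10 late genes in which each KO library exceeded each WT library, against 33.2% of all genes tested.

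Cyp51, the lanosterol demethylase, and Tm7sf2, a sterol reductase of the next step, had each KO library under each WT library. Cyp51 had 55.0 and 51.7 CPM in WT and 36.0 and 39.7 CPM in KO libraries, a log2 fold change of -0.50 ± 0.19 (SE, adjusted p = 0.0944). Tm7sf2 had 24.6 and 37.7 CPM in WT and 20.3 and 23.4 CPM in KO libraries (log2 fold change -0.51, adjusted p = 0.198), and it was called at -0.81 without WT1. Cyp51 overlaps Akap9 on the other strand and Tm7sf2 overlaps Vps51, which is on its own strand. The sources used here do not say how strand was treated, so reads in the stretch shared with Akap9 are uncertain, and reads shared by Tm7sf2 and Vps51 cannot be told apart by strand. For Sqle, the squalene epoxidase, the WT libraries had 45.4 and 63.1 CPM and the KO libraries 47.2 and 43.6, and the groups overlapped (log2 fold change -0.26, adjusted p = 0.427). For Lss, lanosterol synthase, WT1 had 58.5 CPM and WT2 had 32.7 CPM, with both KO libraries, at 63.4 and 56.1 CPM, straddling WT1. The log2 fold change of Lss was 0.39 (adjusted p = 0.346), and it was called at 0.84 without WT1. In Msmo1, Nsdhl and Ebp, which encode enzymes that remove methyl groups from the ring or shift its double bond, the groups overlapped and the fitted log2 fold changes lay between -0.0405 and 0.13.

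Fdps, which encodes farnesyl diphosphate synthase, had few reads of its own and has close copies. Only 26 and 14 reads of WT and 28 and 12 reads of KO libraries were counted for it, and at 0.295 FPKM in WT cells it was the lowest of the 34 genes. Processed pseudogenes and other genes of at least 90% identity over at least 0.6 of their length were looked for in GENCODE transcripts, a step chosen after the values were seen. For Fdps there were 4, all pseudogenes, of which Gm3571 (98.87% identity) had 30 and 42 reads in WT and 109 and 114 reads in KO libraries, more than Fdps in each. Summed with its 4 pseudogenes, Fdps had 64 and 61 reads in WT and 150 and 140 reads in KO libraries, a log2 fold change of 1.21 ± 0.35 (SE, adjusted p = 0.0461), against -0.005 for the row alone. With the sum, 5 of 18 sterol genes were called higher. Which locus the reads came from was not tested. Acaca, Elovl6, Fdft1 and Idi1 also have such copies, and so does Acat2 in the protein-coding gene Acat3, and their calls were the same after summing. Among these 5 genes the copy that added the most reads was Gm5182, summed with Acaca, which had 230 and 187 reads in WT and 351 and 275 in KO libraries, and it gave a log2 fold change of 1.47 in place of 1.66.

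The widest fall in the group was that of Abca1, which encodes the transporter that loads cholesterol onto apolipoprotein A-I outside the cell (chromosome 4 from 53030787 to 53159895). It stood at 154 (WT1), 62.8 (WT2), 9.91 (KO1) and 8.26 CPM (KO2). The WT libraries differed 2.45-fold, but the lower of them was still far above both KO libraries, and the group means differed 11.9-fold. The log2 fold change was -3.57 ± 0.42 (SE, adjusted p = 0.00245), with -2.82 without WT1 and -4.09 without WT2. Among the 34 genes it went from 16th to 33rd place by mean FPKM, from 10.4 in WT to 0.868 in Npac KO cells.

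Among the regulators, the Insig genes moved in opposite directions. Insig1, whose own transcription is a known SREBP target (chromosome 5 from 28276361 to 28283660), had 24.0 and 26.4 CPM in WT and 105 and 67.3 CPM in KO libraries, the largest rise of the 34 genes at a log2 fold change of 1.77 ± 0.25 (SE, adjusted p = 0.00458). Insig2, its paralogue (chromosome 1 from 121232082 to 121260318), had 35.6 and 39.7 CPM in WT and 21.2 and 23.1 CPM in KO libraries, a log2 fold change of -0.77 ± 0.21 (SE, adjusted p = 0.0357). The call of Insig2 was lost without KO1, at -0.72, and without KO2, at -0.81, and kept without either WT library.

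Srebf1, whose SREBP-1c product drives fatty acid synthesis genes (chromosome 11 from 60089915 to 60113407), had 61.8 and 60.8 CPM in WT and 122 and 96.5 CPM in KO libraries. Its log2 fold change was 0.83 ± 0.19 (SE, adjusted p = 0.0216), and the call was lost without KO1, at 0.65, and without KO2, at 1.01. Srebf1 overlaps Rai1 on the opposite strand, which had 459 to 702 reads in WT and 355 to 361 in KO libraries. Srebf2, which drives mainly the sterol branch, had 197 and 184 CPM in WT and 283 and 235 CPM in KO libraries, each KO library above each WT library, and a log2 fold change of 0.44 ± 0.19 (SE, adjusted p = 0.124). Scap had 33.2 and 52.1 CPM in WT and 58.0 and 67.4 CPM in KO libraries (log2 fold change 0.56, adjusted p = 0.146), and it was called at 0.91 without WT2.

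Nr1h2 was not called, with KO1 only just below the WT libraries and 103 and 102 CPM in WT and 102 and 87.4 CPM in KO libraries (log2 fold change -0.12, SE 0.18, adjusted p = 0.666). Stard4, a carrier of cholesterol between membranes, had 33.9 and 34.3 CPM in WT and 23.2 and 27.5 CPM in KO libraries (log2 fold change -0.43, adjusted p = 0.176). In all 8 genes of this list the groups did not overlap, 4 with KO above WT and 4 with KO below. Of all 34 genes 20 had each KO library above each WT library and 7 had each below, and over all genes tested this held for 33.2% and 32.5%.

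Paralogues among the 34 genes were compared per length, by the ratio of their FPKM in each library. Insig1 stood at 0.759 and 0.747 of the level of Insig2 in the WT libraries and at 5.55 and 3.28 times its level in the KO libraries, so the order of the pair turned over. The ratio of Scd2 to Scd1 was 2.78 and 2.30 in WT and 4.56 and 3.48 in KO libraries, so Scd2 stood above Scd1 in every library, and by more in the KO libraries. The ratio of Fads1 to Fads2 was 2.63 and 1.60 in WT and 1.02 and 1.03 in KO libraries, so the pair was near equal in the KO libraries. The ratio of Srebf2 to Srebf1 was 2.50 and 2.37 in WT and 1.82 and 1.91 in KO libraries. In each of the 4 pairs the WT and KO ratios did not overlap, and the exact two-sided permutation test over the libraries gave p = 0.333 for each, the smallest that 2 libraries against 2 allow.

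**Figure D3:**
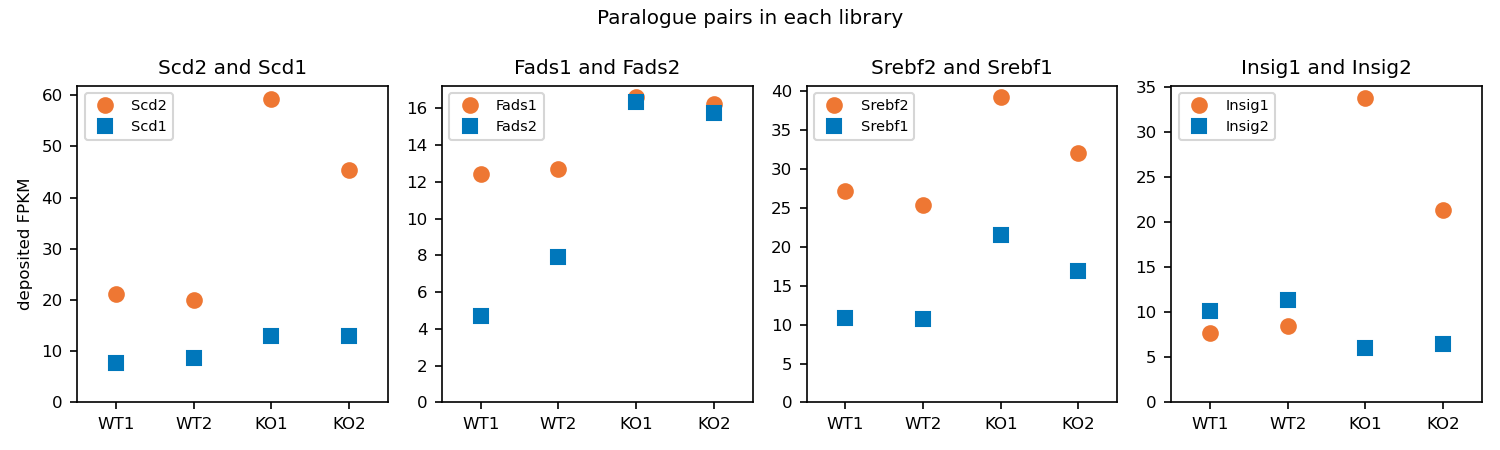
Deposited FPKM of 4 paralogue pairs in each library, with axes from 0 that differ between panels (orange circles and blue squares, the genes named in each panel). Insig1 crosses above Insig2 in KO1 and KO2, Fads2 reaches the level of Fads1 there, at 16.3 and 15.7 FPKM, and Scd2 lies above Scd1 in every library.

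By mean FPKM the most abundant transcript of the group was Acly in both genotypes, with 47.8 FPKM in WT and 112 FPKM in Npac KO cells. In WT cells it was followed by Nr1h2 (30.4), Srebf2 (26.3), Pmvk (25.8) and Scd2 (20.6), and in Npac KO cells by Fasn (55.3), Scd2 (52.3), Srebf2 (35.7) and Hmgcs1 (29.5). Between neighbours in the WT order, the libraries of Srebf2 (27.2 and 25.4 FPKM) lay within those of Pmvk (21.5 and 30.2 FPKM), so their order is not larger than the spread. The mean of Fasn went from 7th to 2nd place and that of Pmvk from 4th to 13th. The 2nd place of Fasn in Npac KO cells (64.8 and 45.7 FPKM) was not beyond the spread of Scd2 (59.2 and 45.4 FPKM), nor was its place in WT cells (21.6 and 13.4 FPKM) beyond that of Scd2 and Acat2.

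The chromosome on which a gene lies moved with part of these results. Of the 8 fatty acid genes, the 3 on chromosome 11 were all called higher, and of the 5 on chromosomes 3 and 19 there were 4 called higher, with a median log2 fold change of 1.34. With the chromosome medians removed from each KO library, Fasn was at 1.20 (adjusted p = 0.0245) and Acaca at 1.19 (adjusted p = 0.00726), both still called. Acly was at 0.77 with an adjusted p of 0.0545, and Srebf1 was at 0.37 with an adjusted p of 0.204, and neither was called. In the sterol branch Mvd on chromosome 8 was at 0.90 (adjusted p = 0.0369) and still called, and Msmo1 on the same chromosome went from 0.13 to -0.36, not called in either. The other 3 called sterol genes, Hmgcs1, Idi1 and Fdft1, lie on chromosomes 13 and 14. The medians of the branches were 1.20 for fatty acid synthesis and 0.26 for sterol synthesis after the removal. The shift of these chromosomes was seen in both KO libraries against the mean of the WT libraries. It was not measured in each WT library singly. The shift and the loss of Npac cannot be told apart.

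**Figure D4:**
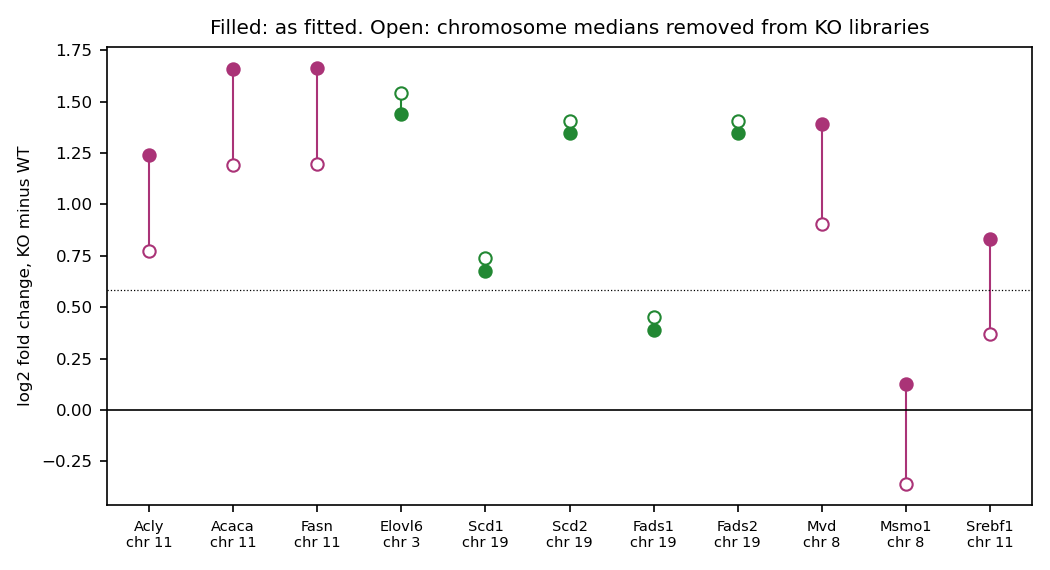
Log2 fold change of the 8 fatty acid genes and of the other genes of the group on chromosomes 8 and 11, as fitted (filled) and after the median of each chromosome was removed from each KO library (open), with purple for chromosomes 8 and 11, green for other chromosomes and a dotted line at 1.5-fold. Fasn and Acaca stay near 1.2 after the removal, Srebf1 falls below the dotted line at 0.37, and genes on chromosomes 3 and 19 move up slightly.

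A further 45 genes of lipid synthesis and its control were counted as a list. Of these 43 were tested, with a median log2 fold change of 0.24, and 3 were called higher and 3 lower, against the 11% and 10.7% of all genes given above. Called higher were Dbi, which binds acyl-CoA, with 516 and 1042 reads in WT and 1529 and 1530 in KO libraries (log2 fold change 1.00, adjusted p = 0.0384), Rnf145, a sterol-responsive ubiquitin ligase on chromosome 11 (0.97, adjusted p = 0.0156), and Tecr, the last enzyme of the chain elongation cycle, on chromosome 8 (0.67, adjusted p = 0.0398). Called lower were Elovl7, an elongase, with 672 and 472 reads in WT and 117 and 181 in KO libraries (-1.98, adjusted p = 0.00681), Mid1ip1, which promotes acetyl-CoA carboxylase polymerization (-0.93, adjusted p = 0.0461), and Acss2, which makes acetyl-CoA from acetate (-0.85, adjusted p = 0.025). The other 37 tested genes of this list were not called. With the chromosome medians removed, 2 genes of this list were called higher and 2 lower. Over all 18157 genes tested, 1696 were then called higher and 1776 lower. The count of this list changed with single libraries left out, and so did the counts over all genes, as given below, so the change is not particular to this list.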

How the data were processed

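RNA-seq libraries from WT cells (n = 2) and Npac KO cells (n = 2, 1 per clone) were analysed. The authors deposited whole-number read counts for each gene, not normalized, and FPKM values, in which those counts are divided by gene length and by 1 factor per library. Per the labels, the submitters' processing notes name CASAVA, HISAT2 2.0.5, featureCounts 1.5.0-p3 and mm10. Of 52125 genes shared with GENCODE M21 (GRCm38), 2.92% have the same start and end in the deposited tables, so gene coordinates are given as in the files, whose build is not given in the sources used here. RefSeq promoters are in GRCm38.p6. Strand use in counting is not given in the sources used here, so overlapping genes are uncertain, and so are genes with near-identical copies.

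The counts were tested with edgeR 4.0.16 under R 4.3.3 (TMM, filterByExpr, quasi-likelihood test on all 18157 genes passing the filter, Benjamini-Hochberg adjustment). Genes were called where the adjusted p was under 0.05 and the fold over 1.5, after the study's methods. Standard errors are the log2 fold change divided by the square root of F. The test was checked on simulated data. The members and lists were chosen with earlier results of these data known, so counts over a list are descriptions. All 34 members are named, and of the further pathway genes up to 3 called in each direction with a mean count of at least 100. Alternatives were RLE scaling, DESeq2 1.42.0, other count filters, a replicate block, limma-trend (limma 3.58.1) on log2(FPKM + 1) and log2(FPKM + 0.1), removal of chromosome medians, and leaving out each library. Sums with near-identical copies, aligned over at least 400 bases by blastn, were added after the data were seen. Promoters to be shown were those with the sterol response element. Proteins were not compared here.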

Additional observations from a re-analysis of the deposited data

How the results depend on the processing

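Without 1 library the remaining library of that genotype is assumed to vary like the other genotype. Over 13 other settings per gene, 403 of 442 fitted log2 fold changes of the 34 genes kept their sign and their side of the thresholds. The fatty acid genes kept 6 or 7 called higher and 0 lower under every setting, and their median lay between 1.16 and 1.48, and that of the sterol genes between 0.0685 and 0.35, with each library left out. Sterol genes called higher numbered 2 to 6 and called lower 0 to 2 with each library left out, and under the replicate block 1 sterol gene, Pmvk, was called lower. Regulator and transport genes called higher numbered 1 with chromosome medians removed and 1 to 3 with each library left out, and called lower 1 to 2. The further pathway genes called higher numbered 5 with no count filter, 5 under the replicate block and 0 to 11 with each library left out. Those called lower numbered 1 on FPKM with either pseudocount and 1 to 4 with each library left out.

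Changes of sign were confined to genes that were not called as reported. Fdps, at -0.005, was 0.0048 with no count filter, 0.0029 with at least 10 reads in every library, 0.0935 with chromosome medians removed, 1.21 with its copies and -0.84 to 0.60 with each library left out. Msmo1 was -0.36 with chromosome medians removed and -0.0393 to 0.28 with each library left out. The leave-one-out ranges were -0.0982 to 0.20 for Mvk, -0.0284 to 0.25 for Ebp, -0.14 to 0.0582 for Nsdhl and -0.24 to 0.001 for Nr1h2. Idi1 missed the threshold on FPKM with either pseudocount (adjusted p = 0.0594 and 0.053) and Scd1 with a pseudocount of 1 (0.0513). The cause was not tested.

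The replicate block, which treats libraries of the same number as a pair, called Pmvk, Dhcr7 and Scap in addition and lost no call among the 34 genes. With it 3128 genes were called higher and 2994 lower in all, against 1999 and 1946 without it. The difference between libraries 1 and 2 correlated at 0.345 across genes between the genotypes. With 2 libraries a genotype and no label that pairs them, the libraries share only a number. Dropping KO1 gave 851 and 824 calls over all genes and dropping KO2 gave 826 and 821, while dropping WT1 gave 2773 and 2907 and dropping WT2 gave 3571 and 3384. With no count filter, over 32685 genes, there were 2862 and 2799. Srebf2, Scap, Cyp51 and Stard4, whose fitted changes were near or under 1.5-fold, missed the thresholds although their groups did not overlap. Fdps had few reads of its own and has near-identical copies, and what limits its fit was not tested.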
